A study of Mus musculus with 2 samples.

Results

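Interferon-stimulated genes were followed in mouse CD4 T cells that lacked Menin, the Men1 product, which recruits MLL-type histone methyltransferases to genes. The list holds 44 mouse genes chosen by name for their known induction by interferon, out of 18434 gene symbols that the array's probes could be matched to. A named probe was found for 40 of them (56 probes), and 39 were well above background, all 39 on both arrays. Mx1, Mx2, Oas1b and Ifi203 had no named probe here. Ifi205 did not stand well above background on the arrays, with a signal of 2.34 in Menin KO cells and 3.17 in Menin WT cells.

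Total RNA came from Menin KO CD4 T cells (1 array) and Menin WT CD4 T cells (1 array), both from spleens of female C57BL/6J mice. In both genotypes naive cells (CD4+CD62L+) were stimulated for 2 days on plates coated with anti-TCR-β (3 µg/ml), together with anti-CD28 (1 µg/ml) and IL-2 (2.5 ng/ml), and then grown for 3 days more in IL-2. No interferon was among the listed additions. The series title places Menin and Bach2 in T cell senescence and cytokine balance. The deletion allele, any Cre driver, the age of the mice and the number of mice behind each RNA were not given in the labels used here.

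Type I interferons bind a receptor of Ifnar1 and Ifnar2, whose kinases Jak1 and Tyk2 activate a complex with Stat2 and Irf9. This complex binds the interferon-stimulated response element, or ISRE, in the promoters of antiviral genes. Interferon gamma acts through Ifngr1 and Ifngr2 on promoters with a gamma-activated site, or GAS, and it is the main inducer of the GTPases that attack pathogen vacuoles. Activated T cells can make interferon gamma themselves, and many of these genes also keep a basal level of expression through low, constant interferon signalling.

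With 1 array a genotype there was no replicate check, so the differences carry no test and no p-value. Differences are log2 of the signal in KO minus WT after each array was scaled to its 75th percentile, and a gene counted as apart at 2-fold or more. Probes printed several times gave a pooled SD of the KO minus WT difference between spots of 0.0562 at signals of 100 or more and 0.242 below 100. That scatter leaves out mice, cultures, RNA preparations and hybridisations. In bulk RNA, fewer cells expressing a gene and less RNA per cell cannot be told apart.

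The targeted gene Men1 had a signal of 459 in KO cells and 1081 in WT cells, 2.38-fold lower in KO, on a probe whose place relative to the deleted part is not known here. All 6 T cell markers measured were above background on both arrays, with Cd3d at 55593 in KO and 62714 in WT and Cd4 at 279 in KO and 443 in WT. Of them 5 lay within the 2-fold limit, and Cd5, an inhibitory receptor of T cells, was lower in KO, at 16739 in KO and 55133 in WT (-1.73). Cd8a, a marker of the CD8 lineage, had 3213 in KO cells and 312 in WT cells, 10.2-fold higher in KO.

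The Ifit and Ifitm promoters are shown because these families differed most between the arrays, in opposite directions. The sequences are RefSeq promoter windows of GRCm38.p6, from 250 bases before to 50 bases after the start, printed 5′ to 3′ on the gene's strand. Capitals mark the ISRE core, searched on both strands as GAAA, any 2 bases, GAAA. The windows are chr19:34583279-34583578 (plus strand) for Ifit3, chr19:34550444-34550743 (plus strand, the more upstream of its windows) for Ifit2 and chr19:34640639-34640938 (plus strand) for Ifit1. They are chr7:140967826-140968125 (plus strand) for Ifitm1, chr7:140955912-140956211 (minus strand) for Ifitm2 and chr7:141010695-141010994 (minus strand) for Ifitm3.
Ifit3: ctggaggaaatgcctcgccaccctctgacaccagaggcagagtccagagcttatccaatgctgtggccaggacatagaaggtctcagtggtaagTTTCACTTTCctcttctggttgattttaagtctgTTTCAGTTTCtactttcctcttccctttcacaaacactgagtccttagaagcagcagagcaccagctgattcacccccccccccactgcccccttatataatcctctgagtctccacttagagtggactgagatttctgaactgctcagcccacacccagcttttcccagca
Ifit2: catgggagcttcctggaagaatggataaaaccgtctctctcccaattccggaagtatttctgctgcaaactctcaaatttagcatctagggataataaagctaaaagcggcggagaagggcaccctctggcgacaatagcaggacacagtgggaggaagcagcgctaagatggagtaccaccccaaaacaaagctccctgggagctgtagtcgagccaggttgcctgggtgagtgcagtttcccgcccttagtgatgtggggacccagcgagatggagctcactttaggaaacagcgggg
Ifit1: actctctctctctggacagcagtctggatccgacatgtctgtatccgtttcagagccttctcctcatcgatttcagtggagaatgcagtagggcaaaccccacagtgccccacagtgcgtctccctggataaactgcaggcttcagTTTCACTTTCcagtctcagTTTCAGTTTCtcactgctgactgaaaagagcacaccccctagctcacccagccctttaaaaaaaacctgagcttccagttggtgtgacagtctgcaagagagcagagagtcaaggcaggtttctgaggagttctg
Ifitm1: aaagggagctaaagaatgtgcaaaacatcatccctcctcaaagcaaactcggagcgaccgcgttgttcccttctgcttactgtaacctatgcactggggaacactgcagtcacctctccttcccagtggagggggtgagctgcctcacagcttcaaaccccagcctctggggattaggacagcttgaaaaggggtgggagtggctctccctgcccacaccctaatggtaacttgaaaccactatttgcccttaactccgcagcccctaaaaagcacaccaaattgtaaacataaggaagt
Ifitm2: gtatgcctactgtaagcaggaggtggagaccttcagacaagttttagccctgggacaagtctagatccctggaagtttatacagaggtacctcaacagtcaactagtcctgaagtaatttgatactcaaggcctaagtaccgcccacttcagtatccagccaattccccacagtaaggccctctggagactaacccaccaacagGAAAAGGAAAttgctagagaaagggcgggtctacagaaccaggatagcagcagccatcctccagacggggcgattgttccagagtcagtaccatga
Ifitm3: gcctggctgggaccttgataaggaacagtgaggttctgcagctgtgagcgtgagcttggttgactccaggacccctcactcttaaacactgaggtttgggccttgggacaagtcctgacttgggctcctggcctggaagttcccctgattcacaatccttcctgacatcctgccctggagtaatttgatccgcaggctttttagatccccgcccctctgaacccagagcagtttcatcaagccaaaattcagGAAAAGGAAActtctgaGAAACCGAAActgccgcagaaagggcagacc

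Of the 39 measured genes, 8 were at least 2-fold lower in KO (20.5%), against 5.14% of the 13510 named genes measured. At least 2-fold higher in KO were 4 (10.3%), against 10.8% of all named genes, and 27 lay between the limits. The 12 apart made 30.8%, against 15.9% of all named genes. At a limit of 1.5-fold 16 were lower, against 12.7% of all named genes, and 4 higher, against 17.3%. At 4-fold 4 were lower, against 1.17%, and 3 higher, against 4.01%. The median log2 difference of the 39 was -0.47, with 29 below 0 and 10 above, while the median over all named genes was -0.01, with 50.5% below 0. The 8 lower genes were Ifit2, Ifit3, Oas2, Zbp1, Rtp4, Iigp1, Ifi204 and Usp18, and the 4 higher genes were Oasl1, Ifitm1, Ifitm2 and Ifitm3. The shares of 5.14% lower and 10.8% higher among all named genes also stand beside the 2-fold counts by role, list and cluster below. Normexp background correction changed the split over all named genes, to 601 at least 2-fold higher and 1682 lower in KO, against 1458 and 694 in the values used here. Under it 6 of the 39 were lower, while the share lower among all named genes rose from 5.14% to 13.2%. At least 2-fold higher were 4 of the 39 (10.3%), while that share among all named genes fell from 10.8% to 4.72%. With 6 high WT backgrounds replaced before normexp, 7 of the 39 were lower, against 2.79% of all named genes. In that setting 4 of the 39 were higher, against 5.75%.

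**Figure D1:**
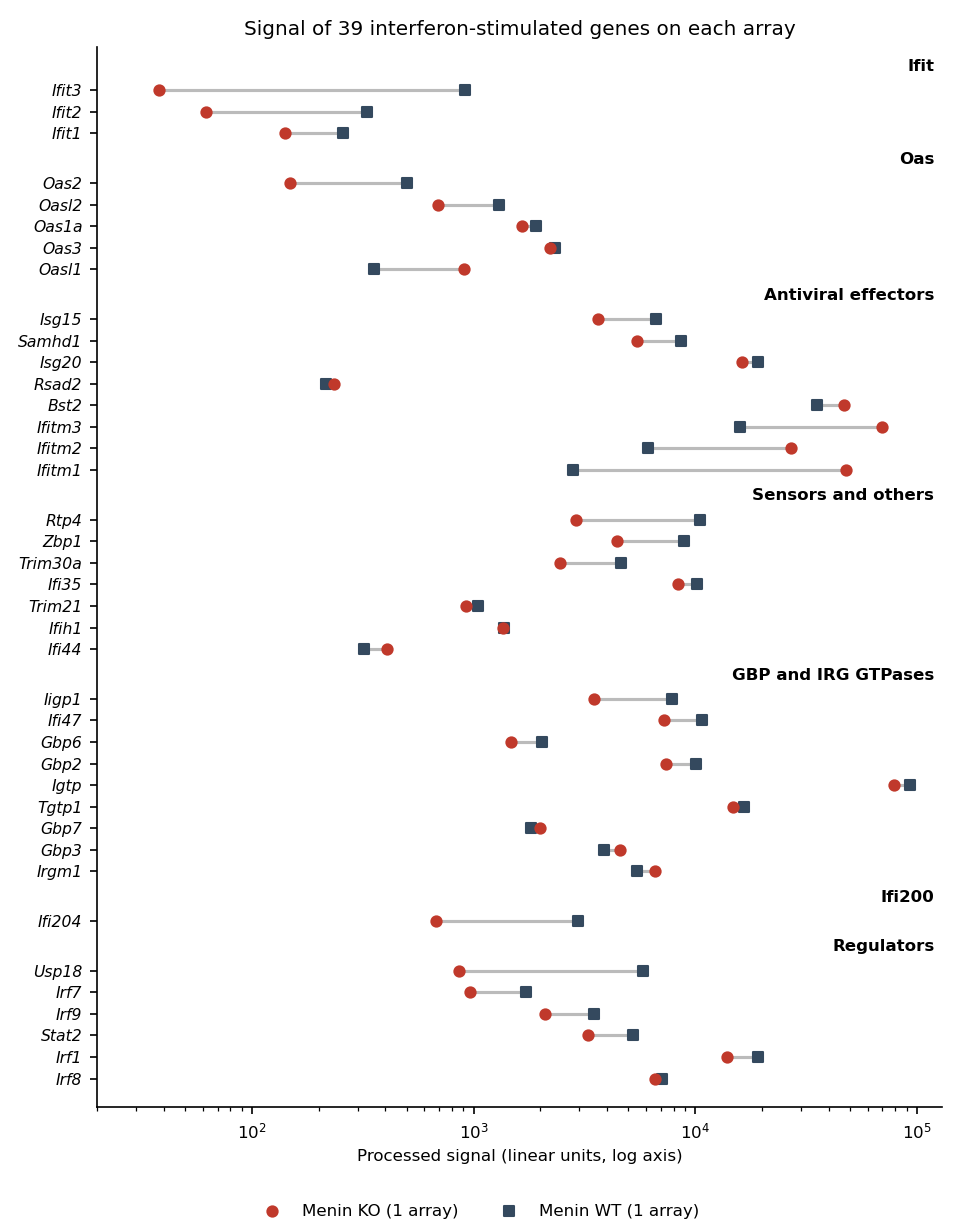
Processed signal (linear units on a log axis) of each of the 39 measured interferon-stimulated genes in Menin KO cells (red circles) and Menin WT cells (dark squares), 1 array each, grouped by role. The KO point lies at least 2-fold to the left for 8 genes, with the widest gap at Ifit3, and at least 2-fold to the right for Ifitm1, Ifitm2, Ifitm3 and Oasl1.

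The Ifit proteins bind viral RNA and hinder its translation. Ifit3, which in humans stabilises Ifit1 on RNA, had a signal of 37.9 in KO cells and 914 in WT cells, a 24.3-fold lower level in KO (log2 difference -4.60). Ifit2 had 62.0 in KO cells and 329 in WT cells, 5.36-fold lower in KO (-2.42), and its other probe, at 21.0 in KO and 126 in WT, gave -2.60. Ifit1, which binds the ends of viral RNA, had 141 in KO cells and 256 in WT cells, 1.84-fold lower in KO (-0.88) and short of the 2-fold limit. All 3 were dimmer on the KO array. Ifit3 has a near-identical neighbour, Ifit3b, and a probe of the one may read the other.

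The Oas enzymes make short oligoadenylates that activate RNase L, the enzyme that degrades viral and cellular RNA. Of the 5 measured, 1 was lower, 1 higher and 3 lay between the limits. Their median was -0.22, which turned to 0.02 under normexp and was -0.13 under normexp with 6 high WT backgrounds replaced. Oas2 had 149 in KO cells and 499 in WT cells, 3.38-fold lower in KO (-1.76), on 1 usable probe. The adjacent pair Oasl1 and Oasl2 went opposite ways. Oasl1, which in mouse represses translation of Irf7 and is not an active synthetase, had 904 in KO cells and 354 in WT cells, 2.53-fold higher in KO (1.34). Oasl2 had 688 in KO cells and 1304 in WT cells, 1.91-fold lower in KO (-0.94). The arrays were close for Oas1a, at 1660 in KO and 1913 in WT (-0.22), and for Oas3, at 2223 in KO and 2324 in WT (-0.08), whose probes differed in sign.

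Among antiviral effectors and restriction factors, 8 of 10 were measured, of which 3 were higher, none was lower and 5 lay between the limits (median 0.25). The 3 higher genes encode the Ifitm proteins, small membrane proteins that block the fusion of enveloped viruses. Ifitm1 had 47773 in KO cells and 2820 in WT cells, 16.8-fold higher in KO (4.07). Ifitm2 had 27047 in KO cells and 6099 in WT cells, 4.40-fold higher in KO (2.14), and its other probe gave 2.03. Ifitm3 had 69925 in KO cells and 15991 in WT cells, 4.33-fold higher in KO (2.12). Of the 5 other effectors measured, 3 were below 0 and 2 above, all within the 2-fold limit.

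Isg15, the ubiquitin-like protein that is attached to newly made proteins, had 3630 in KO cells and 6639 in WT cells, 1.85-fold lower in KO (-0.88). Samhd1, which depletes deoxynucleotides, had 5437 in KO and 8637 in WT (-0.68), and the exonuclease gene Isg20 had 16276 in KO and 19279 in WT (-0.26). Both were on the lower side in KO within the 2-fold limit. Bst2, or tetherin, which holds budding virions to the cell, had 46802 in KO cells and 35598 in WT cells (0.38). Rsad2, or viperin, an enzyme that makes a chain-terminating nucleotide, had 235 in KO and 215 in WT (0.11), and its 3 probes ranged up to 0.58.

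**Figure D2:**
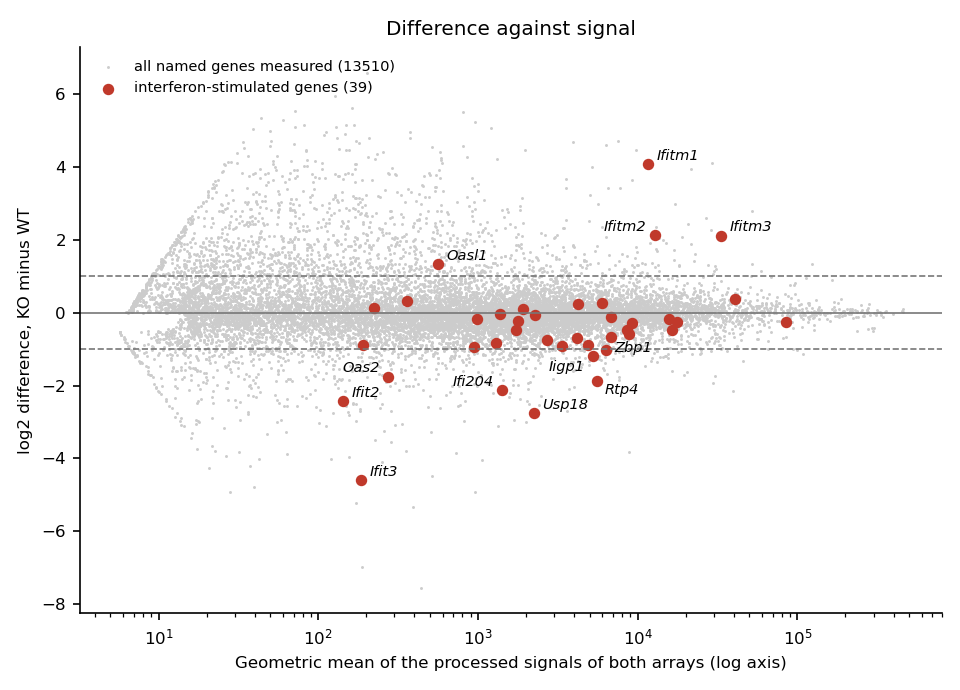
Log2 difference (KO minus WT) of each gene against the geometric mean of its processed signals on both arrays (log axis). Grey points are the 13510 named genes measured, red points are the 39 interferon-stimulated genes, and dashed lines mark 2-fold. The 12 labelled genes lie past 2-fold. The grey cloud is wider at low signals.

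Sensors and other induced genes lay mostly below 0, with 2 of 7 at least 2-fold lower in KO and 5 between the limits. Their median was -0.29, which moved to -0.06 under normexp and was -0.28 under normexp with 6 high WT backgrounds replaced. Rtp4, a chaperone that brings receptors to the cell surface, had 2897 in KO cells and 10560 in WT cells, 3.68-fold lower in KO (-1.88). Zbp1, a sensor of Z-form nucleic acids that can start necroptosis, had 4422 in KO cells and 8948 in WT cells, 2.04-fold lower in KO (-1.03). That value was at the limit and fell short of it under both normexp settings and loess. Trim30a, a ubiquitin ligase that dampens inflammatory signalling, had 2458 in KO and 4635 in WT (-0.93). The cytosolic antibody receptor gene Trim21 (-0.19), Ifi35 (-0.29), Ifi44 (0.33) and Ifih1, the RNA sensor MDA5 (-0.03), were close on the arrays. The genes nearest the limit were Zbp1 and Iigp1 (-1.19), just past it, and Oasl2 and Trim30a, just short of it.

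The guanylate-binding proteins and immunity-related GTPases were little apart, with 1 of 9 lower in KO, none higher and 8 between the limits. Their median was -0.25, which turned to 0.03 under normexp and was -0.20 under normexp with 6 high WT backgrounds replaced. Iigp1, a GTPase that coats parasite vacuoles, had 3479 in KO cells and 7859 in WT cells, 2.28-fold lower in KO. Its difference was -0.92 under normexp and -1.14 with those backgrounds replaced. Igtp, whose product guards the cell's own membranes from that attack, had 78581 in KO and 92831 in WT (-0.25). Gbp2 had 7356 in KO and 10070 in WT (-0.47). The others ran between Ifi47 (-0.57) and Irgm1 (0.26), with Gbp6 at -0.48, Tgtp1 at -0.19, Gbp7 at 0.11 and Gbp3 at 0.23.

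Ifi204, a nuclear DNA sensor of the Ifi200 family, had 677 in KO cells and 2948 in WT cells, 4.40-fold lower in KO (-2.14). Its other probes had 328 in KO and 834 in WT (-1.36) and 135 in KO and 284 in WT (-1.09). The signal was lower in KO on all 3 probes, by unequal amounts, and probes of this family can read close relatives. Ifi204 was the only Ifi200 gene of the list that could be measured.

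All 6 regulators were on the lower side in KO, with 1 past the 2-fold limit and a median of -0.72. Irf8 turned to 0.07 under normexp and was -0.14 under normexp with 6 high WT backgrounds replaced. Usp18, which strips Isg15 from proteins and blocks signalling at Ifnar2, had 859 in KO cells and 5801 in WT cells, 6.81-fold lower in KO (-2.77). Irf7, the factor that amplifies type I interferon production, had 967 in KO and 1720 in WT (-0.84). Irf9, the DNA-binding subunit of the ISRE complex, had 2093 in KO and 3507 in WT (-0.76), and its partner Stat2 had 3276 in KO and 5242 in WT (-0.69). These 3 were each between 1.61-fold and 1.79-fold lower in KO. Irf1, an early factor of the interferon gamma response, had 13979 in KO and 19259 in WT (-0.48). Irf8 had 6581 in KO and 7121 in WT (-0.13).

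**Figure D3:**
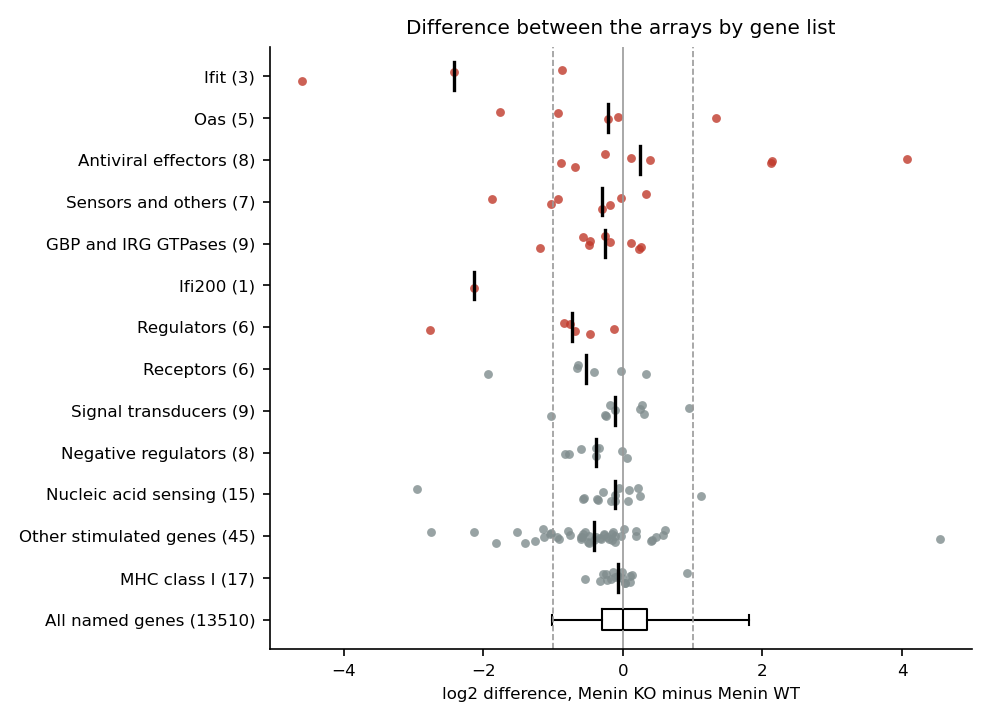
Log2 difference (KO minus WT) of every measured gene by list, with the number measured in brackets. Red points are the 39 listed interferon-stimulated genes by role, grey points are other interferon pathway genes, black bars are list medians and dashed lines mark 2-fold. The box shows the quartiles of all 13510 named genes with whiskers at the 5th and 95th percentiles. The Ifit median lies at -2.42 and that of MHC class I at -0.07.

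Upstream of these genes the interferons themselves were mostly dim. Ifnb1 had 2.57 in KO cells and 3.90 in WT cells and did not stand above background on the arrays, like Ifna4, Ifne and Ifnk. Ifng, interferon gamma, had 2290 in KO cells and 1382 in WT cells, 1.64-fold higher in KO (0.72). Ifna2 had 34.9 in KO and 34.2 in WT (0.02), on a probe that may read other alpha interferons. The ligand of the type II pathway was thus on the higher side in KO, within the 2-fold limit.

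Of 6 receptor genes, 1 was at least 2-fold lower in KO and none higher (median -0.53). Ifnar2 had 1059 in KO cells and 4011 in WT cells, 3.82-fold lower in KO (-1.93), and its other probe gave -0.83, short of the limit. Its partner Ifnar1 had 982 in KO and 1516 in WT (-0.64). Ifngr1, the ligand-binding chain for interferon gamma, had 25289 in KO and 25673 in WT (-0.03), and Ifngr2 had 404 in KO and 535 in WT (-0.42).

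Jak1, a kinase bound to the receptors, had 10290 in KO cells and 12193 in WT cells (-0.26). Tyk2, the other kinase of the type I receptor, had 2243 in KO cells and 1838 in WT cells (0.27). Both lay within the 2-fold limit. None of 8 negative regulators was 2-fold apart (median -0.39).

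Of 15 measured nucleic acid sensing genes, 1 was lower and 1 higher. Tlr7, an endosomal receptor for single-stranded RNA, had 21.2 in KO cells and 162 in WT cells, 7.71-fold lower in KO (-2.95). Ticam1, the adaptor TRIF of Tlr3, had 1649 in KO cells and 751 in WT cells, 2.18-fold higher in KO (1.12). The list's median was -0.12.

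A wider list of other interferon-stimulated genes gave 45 measured of 59, with 10 at least 2-fold lower in KO, against 5.14% of all named genes, 1 higher, against 10.8%, and a median of -0.42. The higher one was Ifitm6, a further Ifitm family member, at 2506 in KO cells and 106 in WT cells, 23.3-fold higher in KO (4.55). The next on the higher side were Tnfsf10 (0.61), the death ligand TRAIL, Ly6c1 (0.58), Lgals3bp (0.47), Ly6a (0.41) and Tor3a (0.41). On the lower side stood Ifit1bl1, an Ifit1-like gene, at 48.2 in KO and 322 in WT, 6.74-fold lower in KO (-2.75). Ifit3b was not well above background in KO, with a signal of 2.17 there and 45.3 in WT, and was at least 4.41-fold lower. The Schlafen genes Slfn1 (-1.82) and Slfn8 (-1.40), Trim12a (-1.52) and the Ifi200 gene Ifi211 (-1.26) followed. The remaining genes past the limit, named after their values were seen, were Gbp9 (-1.14), the chemokine gene Cxcl10 (-1.13), Xaf1 (-1.04) and Ifi27l2a (-1.04). The other probe of Gbp9 gave -0.36, short of the limit.

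Genes of MHC class I and the immunoproteasome, which interferons also induce, showed none of 17 at least 2-fold apart and a median of -0.07. Psmb9 was lowest at -0.54 and Calr highest at 0.91. Over all these pathway lists 103 of 126 genes were measured, with 13 lower, against 5.14% of all named genes, 2 higher, against 10.8%, and a median of -0.23.

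Several of the genes lie side by side in the mouse genome. In the Ifit cluster on chromosome 19 the order is Ifit2, Ifit3, Ifit1bl1, Ifit3b, Ifit1bl2 and Ifit1, between Lipa and Slc16a12. Of 6 measured neighbours, 4 were at least 2-fold lower in KO, against 5.14% of all named genes, and none higher, against 10.8%. Besides Ifit1bl1 and Ifit3b these were Fas, the death receptor, at 902 in KO cells and 3565 in WT cells (-1.996), and the kinesin gene Kif20b at 504 in KO and 1285 in WT (-1.36). Lipa stood at -0.98 and Pank1 at -0.10.

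On chromosome 7 the genes Ifitm5, Ifitm2, Ifitm1, Ifitm3, Ifitm6 and B4galnt4 are consecutive, and all 6 were at least 2-fold higher in KO. Ifitm5 had 197 in KO cells and 50.5 in WT cells (1.95), and B4galnt4, a glycosyltransferase gene, had 2076 in KO and 160 in WT (3.69). The flanking Pgghg (0.55) and Pkp3 (0.22) lay within the limits, as did every further measured gene up to and including Irf7. The Ifitm genes and Irf7 thus stood on opposite sides, with the genes from B4galnt4 to Phrf1 lying between them. They were placed in 1 cluster by a rule that joins listed genes up to 20 genes apart.

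**Figure D4:**
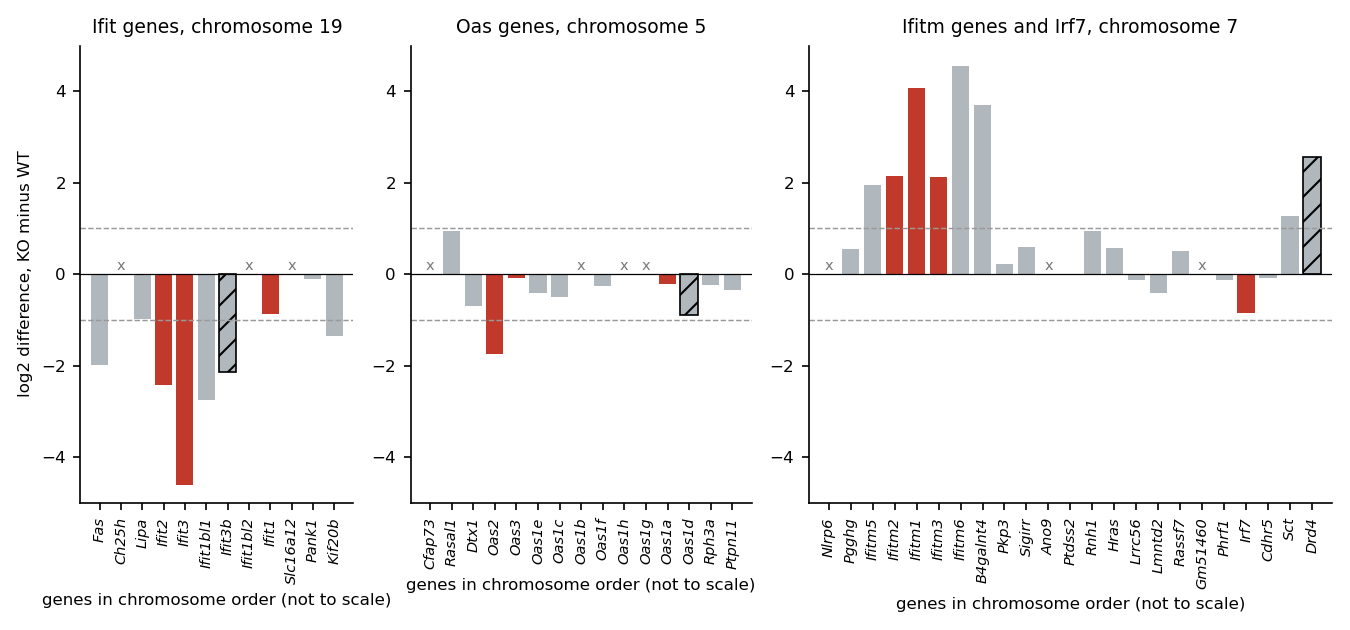
Log2 difference (KO minus WT) of genes in chromosome order at the Ifit, Oas and Ifitm clusters, not to scale. Red bars are listed interferon-stimulated genes, grey bars are neighbours, hatched bars are bounds with 1 array not above background, x marks a gene that was not measured, and dashed lines mark 2-fold. The 6 genes from Ifitm5 to B4galnt4 are all above the line, and the Ifit genes are all below 0.

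In the Oas cluster on chromosome 5, Oas2 was the only gene 2-fold apart among those measured on both arrays. Oas1d, not well above background in KO, has a bound short of the limit (at most -0.91), and Oas1e (-0.42), Oas1c (-0.51) and Oas1f (-0.27) lay within the limits with Oas1a and Oas3. Around Oasl2 and Oasl1 the 4 measured neighbours lay between -0.11 and 0.02. In the Gbp cluster on chromosome 3 and the GTPase cluster on chromosome 11 no listed gene was 2-fold apart.

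Promoter windows were given for 34 of the 44 genes. Oas2, Zbp1, Rtp4, Iigp1, Ifi204 and Usp18, which make up 6 of the 8 lower genes, had none, nor had Oas1b, Mx1, Mx2 and Gbp6. The ISRE core occurred in 21 of these 34 (61.8%), against 3.99% of 27025 genes with a window. The GAS motif (TTC, any 3 bases, GAA) occurred in 12 (35.3%), against 9.55% of all genes, and the AP-1 and Bach core (TGA, any base, TCA) in 9 (26.5%), against 8.97%. The last is shown since Bach2 binds such elements, and Bach2 itself had 604 in KO cells and 4643 in WT cells, 7.76-fold lower in KO. The 8 measured genes with the AP-1 and Bach core had a median of -0.19, with 1 lower and 1 higher. The 24 without it had a median of -0.24, with 1 lower and 3 higher. A part of Bach2 in the differences was not tested.

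Positions are counted from 1 at the start and from -1 before it. In the sequences printed above the ISRE cores of Ifit3 begin at -156 and -122, those of Ifit1 at -104 and -85, that of Ifitm2 at -46 and those of Ifitm3 at 3 and 20. The windows of Ifit2 and Ifitm1 hold none of these letters. Overlaps occur: the GAS match of Ifitm3 begins at 14 and runs into the core at 20, and the 3 cores of Isg15 at -78, -72 and -66 overlap one another. The 19 measured genes with an ISRE core had a median of -0.19 and ranged from -4.60 to 2.14, with 1 lower and 2 higher. The 13 without it had a median of -0.48 and ranged from -2.42 to 4.07, with 1 lower and 2 higher. Of the 8 lower genes these groups hold only Ifit3, with the core, and Ifit2, without it.

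**Figure D5:**
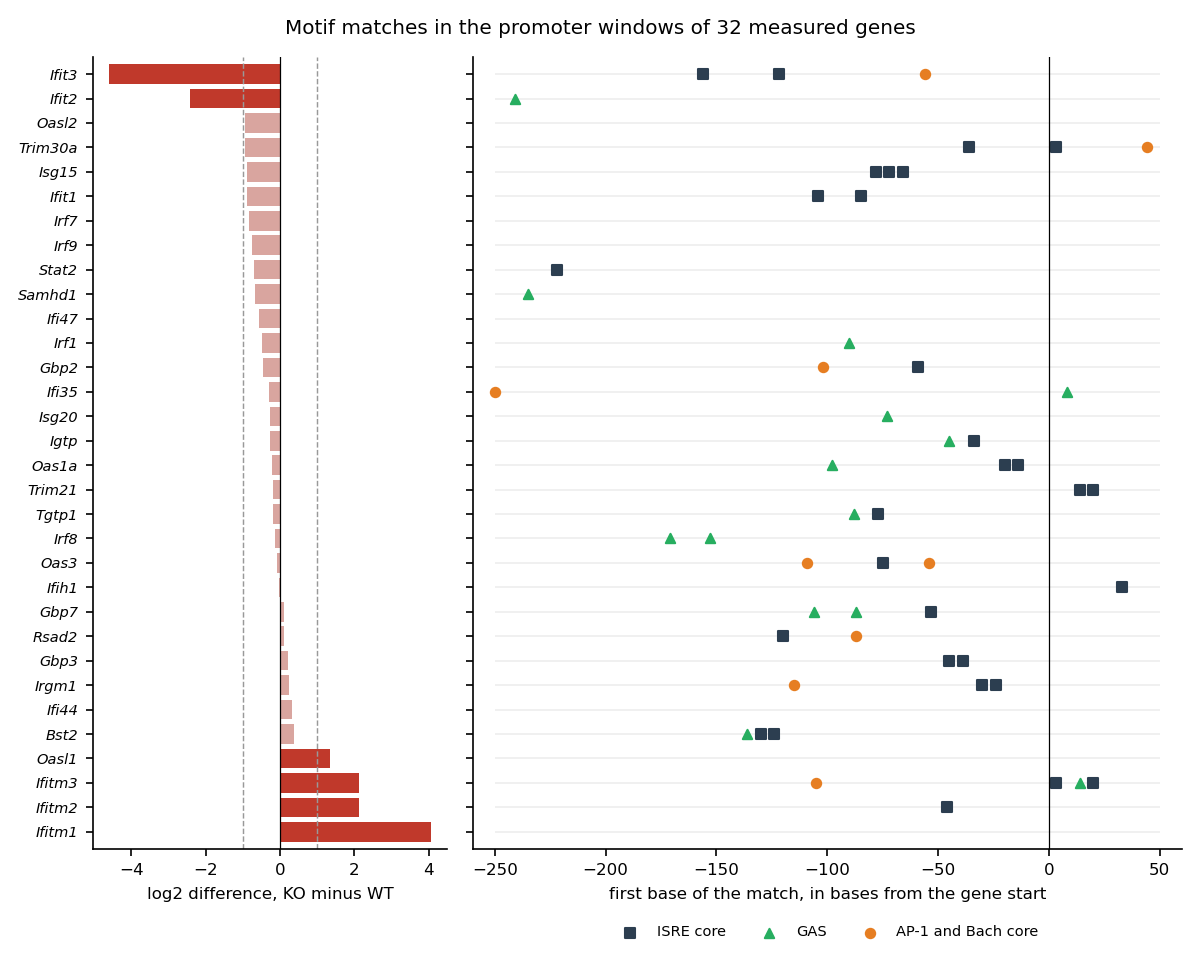
Left, log2 difference (KO minus WT) of the 32 measured genes with a promoter window, with bars past 2-fold in full colour. Right, the first base of each ISRE core (squares), GAS match (triangles) and AP-1 and Bach core (circles), in bases from the gene start. ISRE cores occur beside bars on either side of 0, and Ifit2, Ifitm1, Oasl1 and Oasl2 show none.

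Across the arrays, 63.5% of non-control spots were well above background in KO and 59.5% in WT, with a 75th percentile of 650 in KO and 644 in WT. Markers of other cells that make or answer interferon moved with genotype in part. Of all named genes, 10.8% were at least 2-fold higher in KO and 5.14% lower. Of 4 measured plasmacytoid dendritic cell markers 1 was higher and 1 lower in KO, both dim, and Siglech was not above background on either array. The summed signal of the list was 581 in KO and 380 in WT. Sums here and below take in every listed marker with a probe, also those not above background. Tcf4 had 440 in KO and 276 in WT, and Spib had 85.8 in KO and 65.9 in WT. Of 7 measured macrophage markers 3 were higher in KO and none lower, with sums of 693 in KO and 373 in WT. Cd14 had 256 in KO and 35.0 in WT, Mpeg1 had 107.1 in KO and 165 in WT, and C1qa was not above background on either array.
Natural killer markers summed to 7641 in KO and 2147 in WT (4 of 6 higher, 1 lower), with Fcer1g at 5087 in KO and 669 in WT and Eomes at 452 in KO and 1031 in WT. Conventional dendritic cell markers summed to 788 in KO and 170.2 in WT (1 of 4 higher). Itgax had 623 in KO and 20.04 in WT. Xcr1 had 87.0 in KO and 87.1 in WT on its brightest probe, and its probes ranged from -1.40 to -0.01. B cell markers summed to 1595 in KO and 903 in WT (1 of 4 higher), with Cd79b at 1155 in KO and 665 in WT and Ms4a1 at 266 in KO and 131 in WT. Mast cell and basophil markers summed to 636 in KO and 98.7 in WT (3 of 4 higher), with Cpa3 at 367 in KO and 28.2 in WT and Mcpt8 at 162 in KO and 13.7 in WT. Erythroid markers summed to 552 in KO and 197 in WT (2 of 2 higher), with Hba-a1 at 280.4 in KO and 101 in WT. Hbb-bt had 267 in KO and 92.9 in WT, and its usable probes ranged from -0.002 to 1.51. The part of other cells in the differences of the interferon-stimulated genes was not tested.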

How the data were processed

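RNA of Menin KO and Menin WT CD4 T cells was measured on 1 Agilent 1-colour (Cy3) array each, on 1 slide in the same scan. Per the labels' protocols, TRIZOL was used for extraction, and a Quick Amp kit labelled 500 ng of RNA. Per the file headers, Feature Extraction 10.7.3.1 (version 10.7 per the submitters' processing notes) gave the intensity the authors deposited for each spot, which is linear and background-subtracted, and the probe annotation is on mm9. The authors also deposited a table of log2 values. Compared with the intensities, 99.7% of its values on each array were within 0.01 of log2 of the signal minus a constant, so their scale, centring and direction are known, and the column medians were -3.90 for KO and -3.97 for WT.

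Non-control spots (43379 an array) with outlier flags were left out (103 in KO, 115 in WT), and none was saturated. The log2 intensity minus that array's 75th percentile was used. Dim genes with 1 array not well above background have a bound, the bright value over the higher of the dim value and the lowest value well above background. Printed signals are unscaled, so folds differ slightly from their ratios. The files name accessions only, and a RefSeq table of GRCm38.p6 gave 1 symbol to 27050 of 41174 probes, several to none and none to 14124. It served for names and gene order. A gene took its brightest usable probe, and of 13 listed genes with several usable probes 12 had probes of one sign (the exception was Oas3).

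The listed genes, roles, pathway and marker lists and motifs were chosen with earlier results of these data known. Every listed gene is accounted for. Other genes were named by rule: core receptors, Jak1, Tyk2, Ifng and Ifnb1, genes 2-fold apart in short lists, the 6 largest differences each way among other stimulated genes, and for each other cell type its 2 brightest markers by mean signal. A gene that meets this rule is not reported here. The number of arrays, 1 a genotype, limits the precision. Normexp (limma 3.58.1 in R 4.3.3, offset 50) had been planned on mean spot signals, and median signals were used since the columns used here hold no mean. Other alternatives comprised quantile, median and loess scaling, the authors' values, 2 probe rules, 3 filters on dim probes, kept flags and 1.5-fold and 4-fold limits. The other steps ran in Python 3.11.15. Of these only the probe and gene summary and the 2-fold calls were tested on simulated data, with shifts put on bright genes of the WT array.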

Additional observations from a re-analysis of the deposited data

How the results depend on the processing

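All 12 listed genes that were 2-fold apart kept their sign under 13 alternatives of scaling, background, probe choice and filter, and 10 of them stayed past 2-fold in each. The exceptions were Iigp1 (-0.92 under normexp) and Zbp1 (-0.77 under normexp, and also short of the limit under loess and under normexp with 6 high WT backgrounds replaced). Several alternatives could not move these 12 genes. All were well above background on both arrays, so filters on background and a common detection limit could not change their values. The authors' values were the same signals minus a constant, and the 2 probe rules act only on genes with several usable probes. Median centring brought Oasl2 (-1.01) and Trim30a (-1.005) past the limit. Ifih1, Igtp, Irf8, Oas1a, Oas3, Rsad2 and Tgtp1, all well within the limits, changed sign under at least 1 alternative. Ifit3 ranged from -4.68 to -3.24 and Ifitm1 from 3.99 to 4.23. The median of the listed genes was -0.22 under normexp, and -0.44 under normexp with the 6 high WT backgrounds replaced. It was -0.29 without genes that have near-identical copies (Ifit3, Oas1a, Gbp2, Gbp6, Tgtp1 and Ifi204). That setting only took genes out of the median and left the other values as they were. Of the genes taken out, Ifit3 (-4.60), Ifi204 (-2.14), Gbp6 (-0.48) and Gbp2 (-0.47) stood at or below the median of all listed genes measured. Oas1a (-0.22) and Tgtp1 (-0.19) stood above it. Whether their probes read the copies was not tested. A limit of 1.5-fold gave 16 lower genes, against 12.7% of all named genes, and a limit of 4-fold gave 4, against 1.17%, since the limit itself moved. Without the Ifitm genes, an alternative added after the data were seen, 1 higher gene was left (Oasl1), and a common detection limit, added likewise, left the counts of 8 lower and 4 higher. Of all single-gene values over the 13 alternatives, 119 moved by more than the spot scatter and 388 did not. Many of the unmoved values came from alternatives that could not act on these genes. Normexp and median centring each moved the value of every listed gene measured. Under normexp 601 of all named genes were higher and 1682 lower in KO, against 1458 and 694, but with the high backgrounds replaced 760 were higher and 369 lower. Spot scatter was 0.242 below a signal of 100, where Ifit3, Ifit2 and Tlr7 lay in KO. No paired analysis was possible because each genotype had 1 array.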

Other observations

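Men1 and the Ifit genes lie on the same chromosome, 19. Of its 499 named genes measured, 6.41% were at least 2-fold lower in KO, within the range of 3.13% to 7.59% over the 20 chromosomes, and 10.4% were higher. The median over the chromosome was -0.02. Only chromosomes 16 (7.59%) and 1 (7.11%) had a larger share lower. A share over a whole chromosome cannot show a difference limited to part of it, and parts of chromosome 19 were not tested.

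Sct and Drd4, the neighbours beyond Irf7 and Cdhr5 on chromosome 7, were again higher in KO. Sct, the secretin gene, had a signal of 75.2 in KO cells and 30.8 in WT cells (1.28), and Drd4 had 83.2 in KO cells and was not well above background in WT cells at 11.1. Both were dim in WT cells.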
